A study of Mus musculus with 20 samples.

Results

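The comparison concerns mouse Th17 precursor cells before transfer, Il6ra-deficient against wild type. It rests on the 4 libraries titled as taken before transfer, 2 per genotype, of 20 libraries in the whole series, and was described across all genes. The deficient cells came from C57BL/6 mice labelled Il6ra-/- Il17f/Thy1.1 and carried the CD45.2 allele, and the wild-type cells came from C57BL/6 mice labelled Il17f/Thy1.1 that carried CD45.1. All 4 libraries came from CD4 T cells that had the IL-17F reporter, a Thy1.1 surface marker tied to Il17f. They were cultured with irradiated splenic antigen-presenting cells, anti-CD3 at 2.5 µg/ml, anti-IFN-γ at 10 µg/ml, anti-IL-4 at 10 µg/ml, hyper-IL-6 (20 ng/ml) and TGF-β (2.5 ng/ml), and Thy1.1+ cells were taken at day 6. The source names place 1 library of each genotype in experiment 1 and the other in experiment 2, so the genotypes were compared within each experiment as well as by group. Nothing in the labels ties the 2 libraries of a genotype to different animals, and the p-values therefore reflect no more than variation among libraries. The main edgeR fit took its estimate of spread from these 4 libraries and the colon libraries described below together. The other libraries held colon CD4 T cells sorted by CD45 allele 4 weeks after both genotypes were transferred together into Rag1-/- recipients (3 per genotype), and a separate set of naive and cultured cells (10 libraries). Both the naive and the cultured cells of that set had 4 h of stimulation.

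IL-6 signals through the gp130 chain, encoded by Il6st, after it has bound the IL-6 receptor alpha chain encoded by Il6ra, and the signal activates the transcription factor STAT3. Hyper-IL-6 is a fusion of IL-6 with the soluble receptor chain and can act on cells that lack their own Il6ra. With TGF-β, IL-6 leads naive CD4 T cells to make IL-17A and IL-17F.

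The promoter stretches of the IL-17 cytokine genes and of Eps8l1, the gene with the lowest p-value, are given first because the results return to these 3 genes. Each stretch is the 150 bases before the RefSeq gene start on GRCm38.p6, written 5′ to 3′ along the gene. Capitals mark a match to AGGTCA, a half-site of nuclear receptor response elements, on either strand. Il17a lies at chr1:20730755-20730904 on the plus strand, Il17f at chr1:20784271-20784420 on the minus strand and Eps8l1 at chr7:4460547-4460696 on the plus strand.
Il17a: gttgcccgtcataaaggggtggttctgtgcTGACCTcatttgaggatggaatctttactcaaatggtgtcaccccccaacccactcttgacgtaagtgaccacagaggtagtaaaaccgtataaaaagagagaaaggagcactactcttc
Il17f: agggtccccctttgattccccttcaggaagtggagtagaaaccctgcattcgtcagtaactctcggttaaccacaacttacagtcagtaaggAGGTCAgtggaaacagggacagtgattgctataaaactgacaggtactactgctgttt
Eps8l1: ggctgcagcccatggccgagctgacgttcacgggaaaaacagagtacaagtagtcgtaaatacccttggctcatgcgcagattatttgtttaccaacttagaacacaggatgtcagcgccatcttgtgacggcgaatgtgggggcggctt
The Il17a and Il17f windows each held 1 match, and the 3 Eps8l1 windows, of which 1 is shown, held none. AGGTCA was found on either strand in 16.3% of 32851 RefSeq promoter windows of 300 bases, and the STAT motif TTCNNNGAA, which had no match in these windows, in 8.3%. A match describes the letters and is not a measured binding site.

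The 4 libraries held between 18929599 and 23745060 counts in genes. Wild-type library 1 (experiment 2) stood apart, with 3.56% of its counts in ribosomal protein genes against 1.28% to 1.65% in the other 3. T cell identity was clear in all 4, since Cd4 was at 1420 and 1680 CPM in wild-type libraries and 1200 and 1930 in deficient ones. CPM are counts divided by library size, scaled with TMM in edgeR. Markers of other cell types were also counted. Summed over 19 myeloid and dendritic genes, of which 8 were under 1 CPM in all 4 libraries, they were 49.5 and 30.0 CPM in wild-type and 76.2 and 19.9 in deficient libraries, with the macrophage gene Adgre1 at no more than 0.35 and Lyz2 between 2.22 and 43.8. Of 13 B cell genes, the sum was 247 and 350 CPM in wild-type and 249 and 228 in deficient libraries, of which 2 were under 1 CPM in all 4. Ms4a1, which encodes CD20, was at no more than 0.117 CPM and Cd79a between 0.384 and 1.63. The immunoglobulin heavy chain gene Ighm was at 40.7 and 135 CPM in wild-type and 67.7 and 127 in deficient libraries. The antigen presentation genes Cd74 and H2-Aa, which myeloid cells express too, were at 14.2 to 60.1 and 2.14 to 16.5 CPM, lowest in deficient library 1 and highest in deficient library 0. Of 10 CD8, NK and gamma-delta T genes, 3 were under 1 CPM throughout and Ncr1 was at 0, with a sum of 110 CPM in wild-type library 1 against 47.6 to 57.1 in the others. The part of these cells in the results below was not tested.

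Il6ra transcript level did not separate the genotypes. Il6ra (chromosome 3, 89864059 to 89913196, GRCm38) was at 84.2 and 72.8 CPM in wild-type libraries and 80.6 and 123 in libraries labelled as deficient. Which part of the gene was deleted is not stated in the labels, and reads from the rest of the gene are counted all the same, so these levels are no check of genotype.

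Most genes did not differ between the genotypes in the same way in the 2 experiments. Within each experiment the log2 ratio of deficient to wild-type CPM was taken for 14225 tested genes, with 2 counts added to each library in proportion to its size. The ratios of experiment 1 had an SD across genes of 0.44 and those of experiment 2 an SD of 0.85. In experiment 1, 580 genes (4.08%) differed at least 2-fold, and in experiment 2, the one with wild-type library 1, 2951 genes (20.7%) did. Across genes, which are not independent replicates, the 2 sets of ratios had a Pearson r of -0.08. Genes that were higher in both experiments made up 19.9% of all genes and genes that were lower in both made up 18.9%, together 38.7%. At least 2-fold differences in the same direction in both experiments were found in 118 genes (0.83%), 51 higher (0.359%) and 67 lower (0.471%). Both deficient libraries were above both wild-type libraries in 8.29% of genes and below both in 8.06%.

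**Figure D1:**
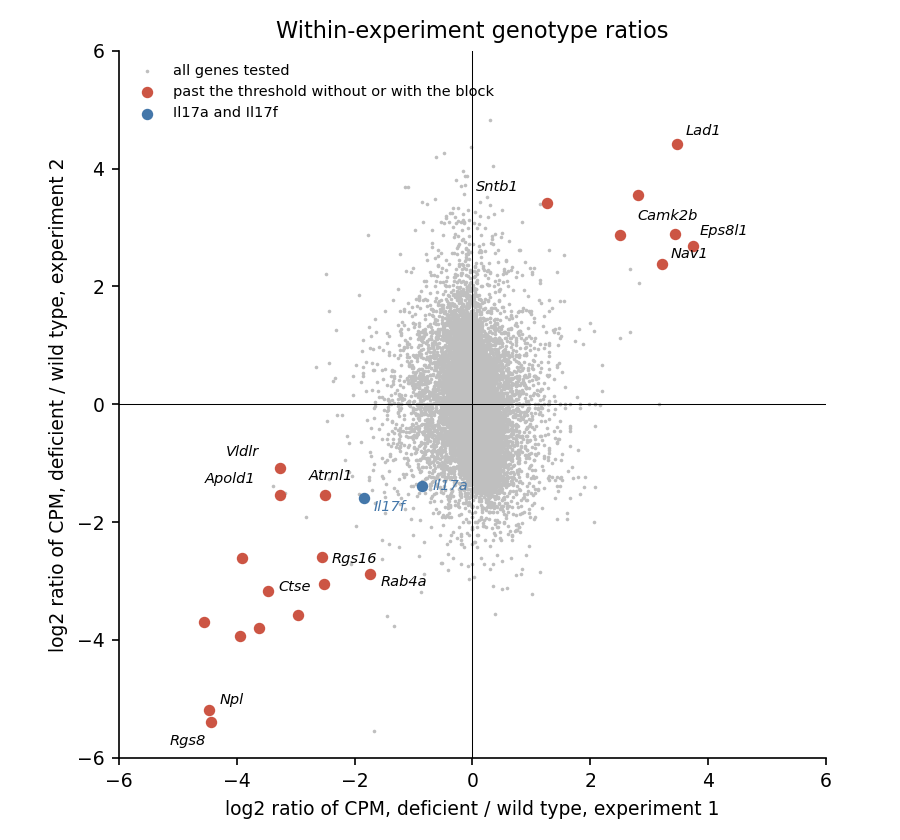
Log2 ratio of CPM, Il6ra-deficient over wild type, in experiment 1 (x axis) and experiment 2 (y axis) for each of the 14225 genes tested. Red points are the 21 genes past the threshold without or with the experiment pairs as a block, blue points are Il17a and Il17f, and the grey cloud is wider along the axis of experiment 2.

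In edgeR's quasi-likelihood test with Benjamini-Hochberg adjustment over all genes and a threshold of 0.05, 1 gene differed (0.00703% of those tested), and 345 genes (2.43%) had an unadjusted p under 0.05, 183 higher (1.29%) and 162 lower (1.14%). That gene was Eps8l1 (chromosome 7, 4460674 to 4480487), which encodes a relative of the actin regulator Eps8. It was at 1.60 and 3.02 CPM in wild-type libraries and at 22.8 and 20.1 in deficient ones. Both deficient libraries were above both wild-type libraries, and Eps8l1 rose with a log2 fold change of 3.21 ± 0.36 (edgeR adjusted p = 0.0342). It passed with the experiment pairs as a block too (adjusted p = 0.0337), but not with the number as a block across stages, where Ctse alone passed, and not without either deficient library, where no gene passed. The count of calls rested on single libraries: it was 1152 without wild-type library 0, Eps8l1 included, and 2 without wild-type library 1, again with Eps8l1.

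With the pairs of same-numbered libraries as a block, 5 genes passed (0.0351%), 3 higher (0.0211%) and 2 lower (0.0141%). Colon libraries entered this fit paired by number as well, which was an assumption. The fit left 3 residual degrees of freedom. Ctse, the gene of the intracellular aspartic protease cathepsin E, was at 106 and 228 CPM in wild-type libraries against 9.40 and 25.2 in deficient ones. The groups did not overlap, and the difference was close to equal in the 2 experiments (log2 ratios of -3.48 and -3.17). Its log2 fold change was -3.27 ± 0.49 without the block, where it did not pass (edgeR adjusted p = 0.183), and with it Ctse fell by 3.33 ± 0.22 (adjusted p = 0.00261). Rgs16, a GTPase-activating regulator of G protein signalling, was at 257 and 168 CPM in wild type against 43.6 and 27.8 in deficient cells. Its ratios were also close, at -2.56 and -2.60, and it passed with the block (-2.58 ± 0.22, edgeR adjusted p = 0.00994) and not without (adjusted p = 0.382).

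Camk2b and Lad1 were the other 2 genes past the threshold with this block, both from low wild-type levels. Camk2b, the beta subunit of calcium/calmodulin-dependent kinase II, was at 0.80 and 2.68 CPM in wild-type and 9.71 and 20.5 in deficient libraries. Its log2 fold change with the block was 3.21 ± 0.29 (edgeR adjusted p = 0.0127, and 0.219 without). Lad1, which encodes the anchoring-filament protein ladinin, was at 0.33 and 0.15 CPM in wild type, from 7 and 3 counts, and at 4.74 and 5.38 in deficient cells. Its log2 fold change with the block was 4.37 ± 0.47 (edgeR adjusted p = 0.0337, and 0.456 without). All 5 genes were also called by DESeq2 and by edgeR with no filter on low counts and no block. Without the block and with no filter the edgeR adjusted p was 0.000103 for Camk2b and 0.0019 for Lad1.

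**Figure D2:**
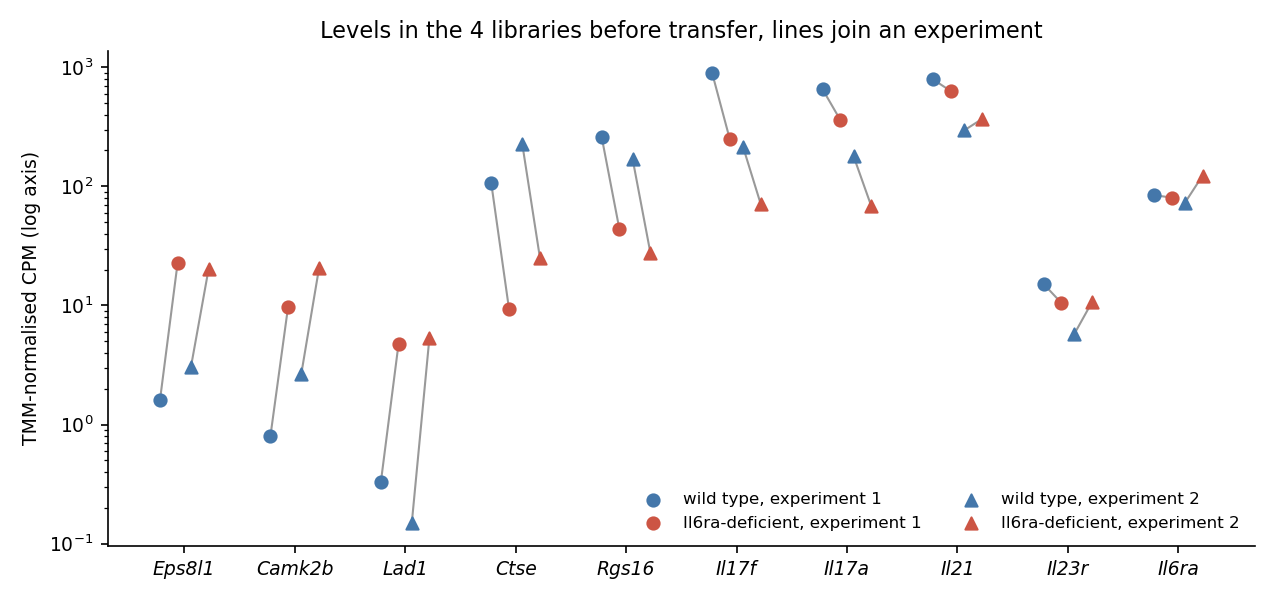
TMM-normalised CPM (log axis) of 10 genes in each of the 4 libraries before transfer, with wild type in blue, Il6ra-deficient in red, circles for experiment 1, triangles for experiment 2 and a line joining the 2 libraries of an experiment. Eps8l1, Camk2b and Lad1 are higher and Ctse, Rgs16, Il17f and Il17a lower in the deficient library of both experiments, while the lines of Il21, Il23r and Il6ra run in opposite directions.

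When the block was fitted on the 4 libraries alone, which leaves 1 residual degree of freedom, 21 genes passed (0.161% of 13052 tested), 7 higher (0.0536%) and 14 lower (0.107%), and these included the 5 above. Without the block the same 4 libraries gave 0 calls and 66 genes with an unadjusted p under 0.05, and DESeq2 gave 14 (0.0984% of 14225). DESeq2 on all 10 transfer libraries called 26 genes (0.183%), 11 higher (0.0773%) and 15 lower (0.105%), of which 15 were among the 21. Beside the 5, both the 21 and the DESeq2 calls held Npl, Rgs8, Rab4a, Atrnl1, Nav1 and Sntb1.

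Npl, the sialic acid lyase gene, was at 8.31 and 5.40 CPM in wild-type and 0.27 and 0.04 in deficient libraries, from 7 and 1 counts in the latter. Rgs8, a relative of Rgs16 that lies near it on chromosome 1, was at 6.43 and 15.2 CPM against 0.19 and 0.26. Rab4a, a small GTPase of endosome recycling, was at 10.9 and 22.7 CPM against 3.18 and 2.99. In these 3 genes both deficient libraries were lower than both wild-type libraries by at least 3-fold. Atrnl1, an attractin-like membrane protein gene, was at 151 and 55.3 CPM in wild-type and 26.7 and 19.0 in deficient libraries (log2 fold change -2.17 ± 0.40, edgeR adjusted p = 0.289). Among the higher genes, Nav1, whose product binds microtubules, was at 3.80 and 2.58 CPM in wild-type and 36.5 and 13.9 in deficient libraries (2.98 ± 0.55, adjusted p = 0.289). Sntb1, a syntrophin adaptor gene, was at 4.88 and 2.73 CPM against 11.9 and 30.1 (2.46 ± 0.46, edgeR adjusted p = 0.289), a difference of 1.26 in experiment 1 and 3.41 in experiment 2 on the log2 scale.

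Vldlr, the very low density lipoprotein receptor gene, and Apold1 passed in the block fit on the 4 libraries and were not called by DESeq2, although Vldlr passed in edgeR with no filter. Vldlr was at 120 and 77.9 CPM in wild-type and 12.5 and 36.7 in deficient libraries, and Apold1 at 24.9 and 28.4 against 2.49 and 9.70. The remaining 8 of the 21 were mostly pseudogenes or predicted genes at low levels. Gm5874 and Gm9025 were at 1.54 to 1.55 and 1.22 to 1.39 CPM in wild type and had no count in deficient libraries, and G530011O06Rik had no count in wild type and 0.50 and 0.68 CPM in deficient libraries. Pseudogene counts depend on how reads were assigned between near-identical copies, so these levels are uncertain.

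Several genes called by DESeq2, but neither in the main edgeR fit nor in an edgeR fit with a block, are named here after their values were seen. Glul, the glutamine synthetase gene, was at 31.8 and 31.4 CPM in wild type and 61.7 and 70.4 in deficient libraries (DESeq2 adjusted p = 2.25e-06, edgeR adjusted p = 0.219). Bsg, the gene of basigin, a partner of lactate transporters, was at 699.9 and 751 CPM against 448 and 388 (DESeq2 adjusted p = 0.00118, edgeR adjusted p = 0.843). Tnfsf8, the CD30 ligand gene, was at 126 and 94.2 CPM against 200.3 and 192 (DESeq2 adjusted p = 0.0406, edgeR adjusted p = 0.901). Mios, a subunit of the GATOR2 complex upstream of mTORC1, was at 20.9 and 13.1 CPM against 37.6 and 39.2 (DESeq2 adjusted p = 0.0182, edgeR adjusted p = 0.595). The annexin gene Anxa1 was at 3.15 and 6.34 CPM against 1.01 and 0.94 (DESeq2 adjusted p = 2.82e-05, edgeR adjusted p = 0.183), and passed in edgeR with no filter on low counts. In each of these 5 genes the libraries of the 2 genotypes did not overlap, where 8.29% of all genes were higher and 8.06% lower without overlap. The 5 were picked from calls that used these same libraries, so the lack of overlap adds no support.

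The 8 genes with the largest fitted falls and rises were also taken among genes of at least 2 in mean log2 CPM that differed by 2-fold or more in both experiments without overlap of the groups. Beside the genes above, the lower genes included the proteoglycan gene Lum, at 13.5 and 4.46 CPM in wild-type and 2.17 and 1.97 in deficient libraries. The higher genes included Mfsd13a (7.19 and 9.27 CPM against 26.6 and 19.0), Sfxn2, a sideroflexin gene (7.09 and 4.81 against 18.4 and 11.6), Zfyve28 (5.45 and 6.05 against 14.5 and 14.8) and Ica1 (3.19 and 3.72 against 8.89 and 8.76). None of these 5 passed in edgeR over all genes, without or with the block. Mfsd13a was called by DESeq2 (adjusted p = 0.00167, against 0.496 in edgeR), and in the colon it passed in edgeR in the same direction (adjusted p = 0.0164). Sfxn2 passed in edgeR when wild-type library 0 was left out (adjusted p = 0.0436), and without that library the log2 fold change of Lum was -1.08 in place of -2.12.

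Of the 21 genes, 8 lie on chromosome 1 within 20 Mb of Ptprc, the gene of CD45, whose allele marked the 2 genotypes. They were Lad1 (2.23 Mb from Ptprc), Nav1 (2.46 Mb), Ctse (6.39 Mb), BC034090 (17.0 Mb), Gm5532 (17.3 Mb) and the closely spaced Npl (15.3 Mb), Rgs8 (15.5 Mb) and Rgs16 (15.6 Mb). This window held 178 tested genes, so 4.49% of them were among the 21, against 0.148% of all genes tested. Of the 627 tested genes farther away on chromosome 1, 0 were among them, and so were 0 of the 352 genes within 20 Mb of Il6ra on chromosome 3. Among the 178, 15 genes (8.43%) differed at least 2-fold in the same direction in both experiments and 24 (13.5%) had an unadjusted edgeR p under 0.05, against 0.83% and 2.43% of all genes. The CD45 allele and Il6ra genotype changed together in these libraries, so the 2 cannot be told apart, for genes of this region or for genes elsewhere. Ptprc itself was at 1288 and 827 CPM in wild-type and 1342 and 1883 in deficient libraries, without overlap of the groups, and it did not pass (log2 fold change 0.61 ± 0.27, edgeR adjusted p = 0.982).

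**Figure D3:**
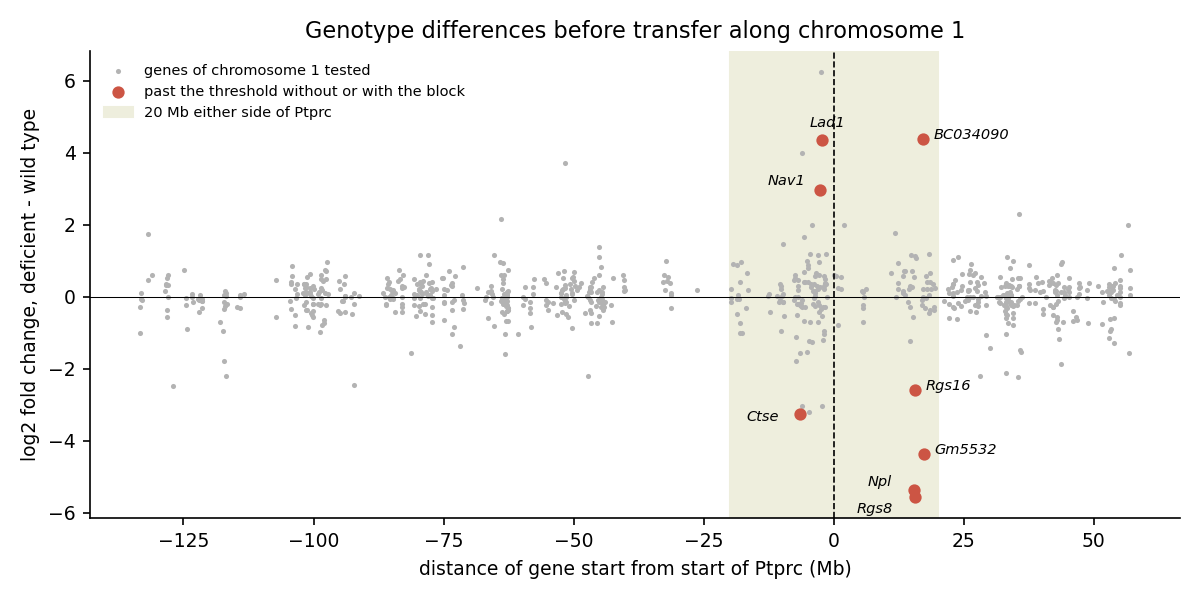
Fitted log2 fold change, Il6ra-deficient minus wild type, of the tested genes of chromosome 1 (y axis) against the distance of the gene start from the start of Ptprc in Mb (x axis). The shaded band spans 20 Mb on either side of Ptprc, and the 8 red points, genes past the threshold without or with the block, all lie in it, while 0 of 627 genes outside it are red. Fitted values of genes that lacked counts in a genotype are no measure of size.

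The 2 chief Th17 cytokine genes were lower in the deficient library of both experiments. Il17f was at 890 and 213 CPM in wild-type libraries and 247 and 70.7 in deficient ones. The groups overlapped because experiment 2 was lower in both genotypes, yet within the experiments the log2 ratios were -1.85 and -1.59. Il17f did not pass without the block (-1.79 ± 0.72, edgeR adjusted p = 0.982) or with it (-1.72 ± 0.21, adjusted p = 0.0751). Each library was also left out in turn without a block, so that 1 genotype was left with 1 experiment only. The fitted log2 fold change of Il17f was then -0.40 without wild-type library 0 and -2.49 without wild-type library 1. Omitting deficient library 0 gave -2.96 and omitting deficient library 1 gave -1.15. The cells were gated on the reporter of this gene. Il17a, next to it on chromosome 1 and over 117 Mb from Ptprc, was at 652 and 179 CPM against 361 and 68.4, with log2 ratios of -0.85 and -1.39 (edgeR adjusted p = 0.982 without and 0.792 with the block). In the leave-out fits the log2 fold change of Il17a was 0.28 without wild-type library 0 and -2.60 without deficient library 0. Those fits set 1 experiment of 1 genotype against both of the other, and Il17a was lower in experiment 2 in both genotypes. They therefore mix the genotype difference with the difference between experiments.

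Of the 9 Th17 cytokine genes tested, 0 were higher and 5 were lower in both experiments (0% and 55.6%, against 19.9% and 18.9% of all genes), and 0 passed. The median log2 ratio was -0.47 in experiment 1 and -0.74 in experiment 2, where the medians over all genes were 0.0014 and 0. Beside Il17a and Il17f, the 5 were Il22, the gene of a barrier cytokine, at 2.07 and 0.55 CPM in wild type against 0.82 and 0.34, Csf2, the GM-CSF gene, at 3.10 and 7.19 against 1.94 and 4.27, and the chemokine gene Ccl20 at 252 and 29.9 against 230 and 22.8. Il21, a cytokine gene downstream of IL-6, went opposite ways, with 790 and 295 CPM in wild type against 630 and 366 in deficient cells. Il10 stayed at or under 1.29 CPM in every library and Ifng between 0.51 and 2.07.

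Th17 transcription factor genes were lower in deficient cells in experiment 1 and higher in experiment 2. Of 17, 13 were lower in experiment 1 and 15 higher in experiment 2, with medians of -0.40 and 0.46. In both experiments 2 were higher and 0 lower (11.8% and 0%, against 19.9% and 18.9% of all genes), and 0 passed. The nuclear receptor gene Rora was at 413 and 89.5 CPM in wild-type and 313 and 201 in deficient libraries. The AP-1 factor gene Batf was at 92.4 and 140 against 93.5 and 62.0, and its partner Irf4 at 1404 and 649 against 1239 and 893. Maf and Ikzf3 were the 2 that were higher in both, at 772 and 366 CPM against 807 and 536, and at 157 and 54.0 against 195 and 104. The aryl hydrocarbon receptor gene Ahr was at 111 and 42.3 CPM against 80.4 and 66.8. In 5 of these 6 genes the lowest value was that of wild-type library 1.

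Receptors and signal mediators of IL-6 overlapped between the genotypes. Il6st was at 150 and 83.6 CPM in wild-type and 147 and 163 in deficient libraries, and Stat3 at 691 and 464 against 482 and 633. Socs3, a STAT3-induced feedback inhibitor, was at 175 and 578 CPM in wild type against 218 and 569 in deficient cells, and so was higher in experiment 2 in both genotypes. Pim1, another target, was at 118 and 238 CPM against 162 and 323 (log2 ratios of 0.45 and 0.44, edgeR adjusted p = 0.982). Of 18 IL-6/STAT3 target genes 2 were higher and 3 lower in both experiments (11.1% and 16.7%, against 19.9% and 18.9% of all genes). Their median log2 fold change was -0.06. Of 13 IL-6 family receptors and sheddases 3 were higher and 1 lower (23.1% and 7.69%). None of either list passed.

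Other Th17 genes were split. Il23r, the IL-23 receptor gene, was at 15.2 and 5.80 CPM in wild-type and 10.5 and 10.7 in deficient libraries, Il1r1 at 163 and 46.0 against 146 and 78.3, and the chemokine receptor gene Ccr6 at 57.7 and 7.19 against 39.3 and 30.7. Of 16 Th17 receptor and surface genes 6 were higher and 3 lower in both experiments (37.5% and 18.8%, against 19.9% and 18.9% of all genes). The lectin-like receptor gene Klrb1f was 1 of the 6, at 7.56 and 4.81 CPM against 13.6 and 14.6 (1.19 ± 0.24 on the log2 scale, edgeR adjusted p = 0.456, DESeq2 adjusted p = 0.00304). Of 17 genes of the pathogenic Th17 signature 1 was higher and 5 were lower in both (5.88% and 29.4%). Of 11 of the non-pathogenic one 6 were higher and 1 was lower (54.5% and 9.09%). The former included the inhibitory receptor gene Lag3, at 831 and 1411 CPM against 602 and 570, and the latter Cd5l at 4.18 and 0.55 against 6.37 and 0.60. The median log2 fold changes of these lists were -0.23 and 0.36, and 0 members passed in edgeR without or with the block.

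**Figure D4:**
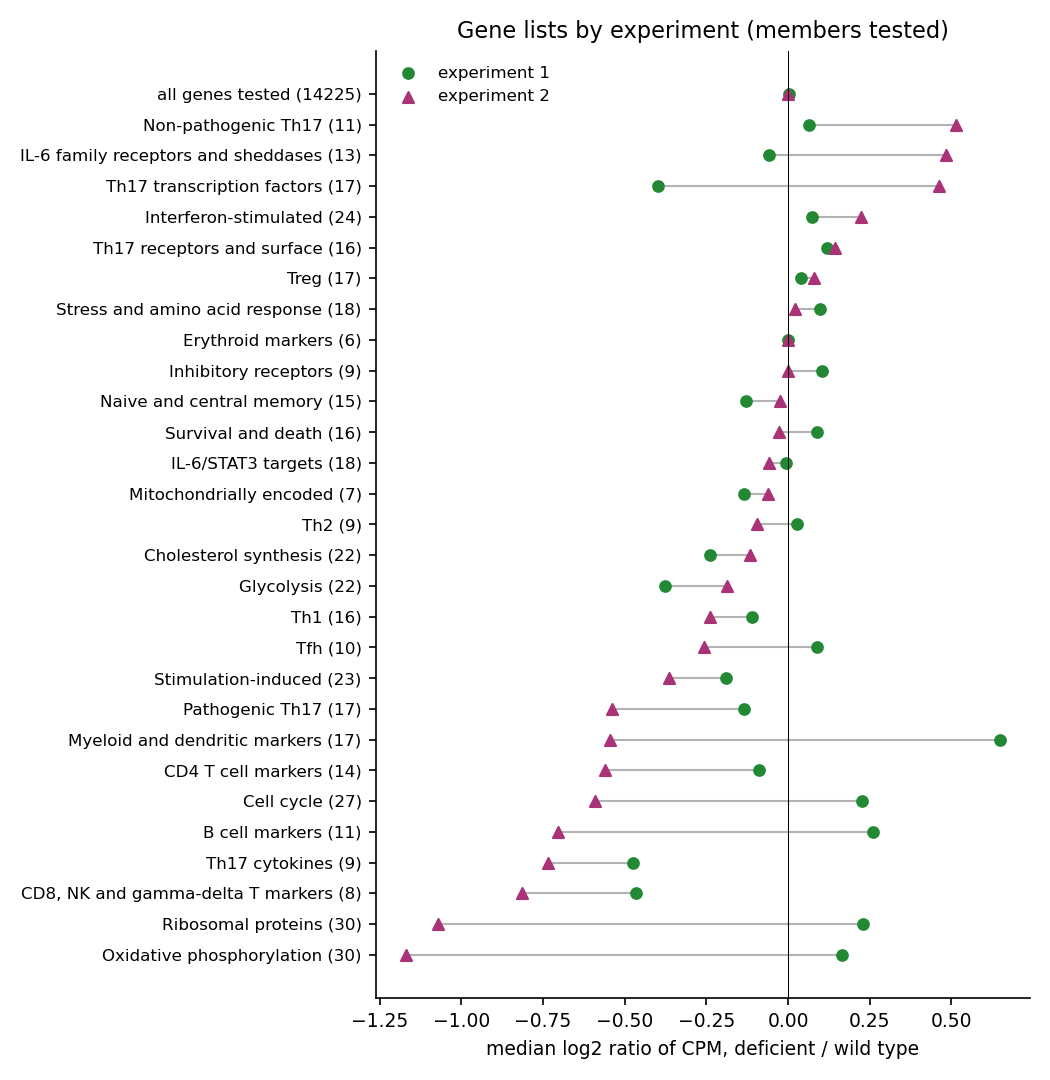
Median log2 ratio of CPM, Il6ra-deficient over wild type, of each gene list (members tested in parentheses) in experiment 1 (green circles) and experiment 2 (purple triangles). Th17 cytokine genes lie below 0 in both experiments, while oxidative phosphorylation, ribosomal protein and cell cycle genes lie above 0 in experiment 1 and below it in experiment 2.

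Many glycolysis and activation genes were lower in both experiments by small amounts. Of 22 glycolysis genes 0 were higher and 15 lower in both (68.2%, against 18.9% of all genes), with medians of -0.38 and -0.19. Tpi1 was at 1490 and 1532 CPM in wild-type and 1150 and 890 in deficient libraries, and the lactate transporter gene Slc16a3 at 512 and 501 against 359 and 314 (edgeR adjusted p = 0.982 for both). In these 2 genes both deficient libraries were below both wild-type ones, as in 8.06% of all genes. The 2 were named for the size of their difference in these libraries, so the lack of overlap adds no support. Of 23 stimulation-induced genes 11 were lower and 1 was higher in both (47.8% and 4.35%, against 18.9% and 19.9% of all genes). Il2 was at 17.5 and 28.7 CPM against 9.59 and 11.6, and the nuclear receptor gene Nr4a1 at 363 and 247 against 262 and 175. Of 22 cholesterol synthesis genes 11 were lower in both and 0 higher, among them Pmvk at 78.6 and 102 CPM against 66.8 and 51.3. None of these 3 lists had a member past the threshold in edgeR without or with the block.

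Within the regulatory T cell list, of 17 members 5 were higher and 3 lower in both experiments (29.4% and 17.6%, against 19.9% and 18.9% of all genes). The 3 lower ones were costimulatory receptor genes of the TNF receptor family. Tnfrsf18, which encodes GITR, was at 286 and 610 CPM in wild-type and 185 and 287 in deficient libraries. Tnfrsf4, the OX40 gene, was at 379 and 694 against 270.0 and 311, and Tnfrsf9, the 4-1BB gene, at 351 and 285 against 150 and 209. Their unadjusted edgeR p-values were 0.0170, 0.0280 and 0.0105 and the adjusted p was 0.982 for each. Of all genes 1.14% were lower with an unadjusted edgeR p under 0.05. Foxp3, which defines regulatory T cells, was at 6.72 and 4.16 CPM in wild type against 15.7 and 2.22 in deficient cells. The median log2 fold change of the 17 members was 0, and 0 passed in edgeR without or with the block.

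Oxidative phosphorylation, ribosomal protein and cell cycle genes mostly went opposite ways in the 2 experiments. Of 30 oxidative phosphorylation genes 27 were higher in experiment 1 and 29 lower in experiment 2, with medians of 0.17 and -1.17. Of 30 ribosomal protein genes 25 were higher in experiment 1 and 28 lower in experiment 2 (0.23 and -1.07), and their summed CPM was 8520 in wild-type library 0 and 23300 in wild-type library 1 against 9640 and 11300 in the deficient libraries. Of 27 cell cycle genes 25 were higher in experiment 1 and 23 lower in experiment 2 (0.23 and -0.59). The topoisomerase gene Top2a was 1 of the 2 that were higher in both, at 1076 and 529 CPM in wild-type and 1176 and 599 in deficient libraries. Wild-type library 1, which held the large ribosomal share, was the wild-type library of experiment 2, and its part in these ratios was not tested.

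The lists of other lineages gave no member past the threshold in edgeR without or with the block. Beside the counts that follow, 19.9% of all genes were higher and 18.9% lower in both experiments. Of 16 Th1 genes 1 was higher and 5 were lower in both experiments, of 9 Th2 genes 1 and 2, of 10 Tfh genes 2 and 1, of 15 naive and central memory genes 3 and 4, and of 9 inhibitory receptor genes 3 and 2. Tbx21, the T-bet gene, was at 5.02 and 1.83 CPM in wild-type and 5.59 and 1.20 in deficient libraries. Of 24 interferon-stimulated genes 9 were higher and 2 lower in both (37.5% and 8.33%). Of 18 stress and amino acid response genes the counts were 5 and 4, of 16 survival and death genes 4 and 2, and of 7 mitochondrially encoded genes 0 and 3. Of the CD4 T cell markers 1 of 14 was higher and 7 were lower. Of 8 tested CD8, NK and gamma-delta T markers 1 was higher and 4 were lower, and of these Klrb1c, an NK receptor gene, was at 1.69 and 3.57 CPM against 0.35 and 0.77 (edgeR adjusted p = 0.637, DESeq2 adjusted p = 0.0131). Of 11 B cell markers 1 was higher and 2 were lower, of 17 myeloid markers 4 and 3, and of 6 erythroid markers 0 and 0. Of 4 genes of the genotypes and markers themselves (Il6ra, Ptprc and the 2 reporter genes) 1 was higher and 2 were lower in both.

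The 21 genes were set beside 3 other genotype comparisons with none of the same libraries. In colon cells 4 weeks after transfer, where 22 genes passed edgeR's test (0.155%), 6 of the 21 passed, all in the same direction as before transfer, namely Eps8l1, Ctse, Nav1, Camk2b, Atrnl1 and Npm3-ps1. The direction was the same in 19 of 21, and the 2 exceptions were Lad1 and Apold1. Ctse was at 295, 348 and 391 CPM in wild-type and 21.8, 32.4 and 32.9 in deficient colon libraries, and Eps8l1 at 4.43, 3.20 and 3.18 against 25.6, 26.1 and 31.7. Rgs16 was at 40.5, 75.2 and 79.7 CPM against 13.9, 31.2 and 41.8, overlapping by 1 library (edgeR adjusted p = 0.667). The colon cells carried the same CD45 alleles, came from the same 2 experiments and descended from cells of the same kind. The colon comparison is therefore no independent repeat. Its fit also shared the estimate of spread with the cells before transfer.

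Values of a separate hyper-IL-6 culture are given side by side with these. The cells there had hyper-IL-6 at 63 ng/ml and 4 h of PMA and ionomycin, so the conditions differ, and the labels name no CD45 allele. In edgeR 0 genes passed there (351, or 2.35%, had an unadjusted p under 0.05) and DESeq2 called 3 (0.0201%). Of the 14 genes of the 21 that could be tested, 9 had the same direction and 0 passed. Ctse was at 3.48 and 4.40 CPM in wild type against 4.56 and 3.62 in deficient cells, Rgs16 at 585 and 555 against 540 and 547, and Eps8l1 at 11.5 and 11.8 against 14.4 and 13.2. Lad1 was at 39.7 and 45.7 CPM against 50.1 and 32.2. Il17f was at 588 and 640 CPM in wild-type and 632 and 1064 in deficient libraries and Il17a at 1399.6 and 1508 against 1714 and 2815, higher in both deficient libraries for Il17a, where before transfer the deficient library was the lower of each pair.

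The naive cells also had 4 h of stimulation, so their conditions differ from those before transfer too. Among naive cells of the 2 genotypes 1 gene passed edgeR's test (0.0067%), a pseudogene that was none of the 21, while 10.4% of genes had an unadjusted p under 0.05 and DESeq2 called 95 (0.636%). Of 14 tested, 11 had the same direction. Camk2b was at 2.30 and 3.52 CPM in naive wild-type and 30.6 and 29.9 in naive deficient cells (log2 fold change 3.37, edgeR adjusted p = 0.202), about as far apart as before transfer, and it lies on chromosome 11. Ctse was at 24.6 and 43.0 CPM against 31.9 and 41.4, Rgs16 at 4.79 and 2.03 against 3.36 and 3.36, and Eps8l1 at 35.2 and 35.4 against 51.1 and 36.4, with overlap in Ctse and Rgs16.

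**Figure D5:**
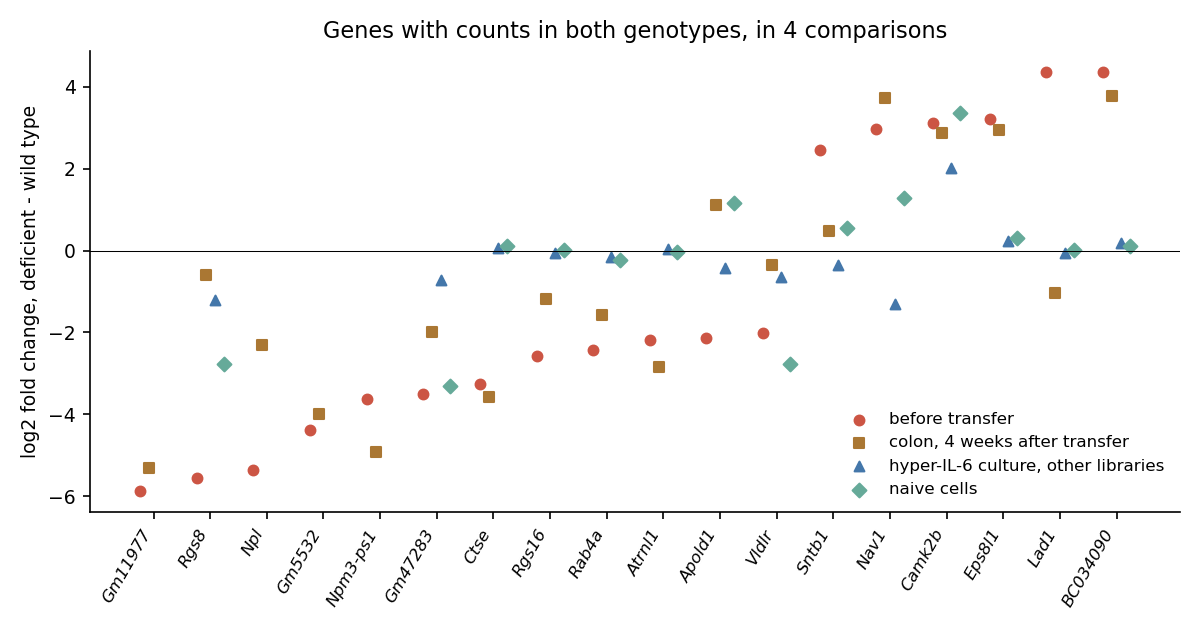
Fitted log2 fold change, Il6ra-deficient minus wild type, of the 18 of the 21 genes that had counts in both genotypes before transfer (red circles), in colon cells (brown squares), in the separate hyper-IL-6 culture (blue triangles) and in naive cells (green diamonds). The colon values of Ctse, Atrnl1, Nav1, Camk2b and Eps8l1 lie near those before transfer, while the culture values of Ctse, Rgs16, Atrnl1 and Eps8l1 lie near 0. Genes not tested in the culture part have no triangle or diamond, and several have under 1 CPM there (Camk2b and Rgs8 among the triangles).

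Whether the genotype difference itself changed between the cells before transfer and in the colon was tested as an interaction. The edgeR fit called 0 genes (377, or 2.65%, had a p under 0.05 before adjustment), its fit with the block called 1 (0.00703%) and DESeq2 called 13 (0.0914%). The difference of differences was -0.30 ± 0.58 for Ctse, -0.26 ± 0.43 for Eps8l1, -0.24 ± 0.63 for Camk2b and 1.40 ± 0.62 for Rgs16 in log2 units (edgeR adjusted p = 0.964, 0.959, 0.982 and 0.953).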

How the data were processed

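The authors deposited 1 table of raw read counts per gene and library. Per the labels' protocols, the library kit was stranded and selected mRNA. The submitters' processing notes name build GRCm38 (mm10), HTSeq 0.7.2 and STAR 2.5.3, beside SAMtools 0.1.18, R 3.4.3 and DESeq2 1.18.1. The strand option and annotation release are not given in the sources used here, so counts of overlapping, antisense and near-identical genes are uncertain. Reads in no gene made up 18.1% to 23.6% of unique reads before transfer and were left out. Symbols came from GENCODE M21 (37693 of 39179 IDs matched).

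Counts of the 10 transfer libraries were fitted together in edgeR 4.0.16 (R 4.3.3) with TMM scaling, its filter by expression and group as the only factor, and the culture part on its own. DESeq2 1.42.0 was an alternative. The other alternatives were RLE scaling, no filter or at least 1 CPM in 2 libraries, the compared groups only, each library left out, a prior count of 0.5 and blocks. Fits with a library left out had no block. DESeq2 on the compared groups was added after seeing the data. Source names tie same-numbered libraries before transfer to 1 experiment, which was taken as the pairing. Their deviations from group means correlated across genes at 0.43. Colon libraries were paired by number too in the block fits that held them, although numbers 1 and 2 both belong to experiment 2. Named genes were those of the IL-6 and Th17 field, those past the threshold without or with the block, the 8 largest changes per direction and up to 4 members of each of 29 lists, of which some are not reported here. The members and lists were chosen with earlier results of these data known. The tests were also run on simulated counts that held no difference between experiments. The libraries here do hold such differences, so that run is no check of the tests on these data.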

Additional observations from a re-analysis of the deposited data

Results flagged for a closer look

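Among the named genes, 4 differed between colon and before transfer in their genotype difference by at least 1 test, and none by edgeR without the block. Over all genes DESeq2 called 0.0914% and edgeR with the block 0.00703%. Lad1 and Apold1 were named for their difference before transfer, in libraries that also enter these tests, so the tests are no independent support for them. Lad1 was higher in deficient cells before transfer (4.74 and 5.38 CPM against 0.33 and 0.15) and lower on average in the colon (4.48 ± 2.83 against 9.26 ± 7.36, n = 3), with a DESeq2 adjusted p = 0.00142. Cd8a was at 14.3 and 19.3 CPM in deficient and 21.0 and 37.0 in wild-type libraries before transfer and at 48.7 ± 20.6 against 14.2 ± 2.06 in the colon, with a DESeq2 adjusted p = 0.0169. Apold1 was at 2.49 and 9.70 CPM against 24.9 and 28.4 before transfer and at 2.94 ± 0.73 against 1.35 ± 0.21 in the colon, with a DESeq2 adjusted p = 0.0195. Ifitm1, an interferon-inducible membrane protein gene, was at 23.0 and 101 CPM against 37.4 and 236 before transfer and at 141.2 ± 1.29 against 25.7 ± 6.63 in the colon, with an edgeR adjusted p = 0.0381 with the replicate block. A reporter gate was used before transfer and not in the colon.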

How the results depend on the processing

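The count of genes that differed before transfer was 1 with RLE scaling and the stricter filter as well, 17 with no filter, 26 with DESeq2, 14 with DESeq2 and 0 with edgeR on the compared groups, and with the replicate block 5 (pairs within a stage), 1 (number across stages) and 21 (compared groups only). Leaving out each library gave 0 to 1152 calls: the fit that omitted wild-type library 0 gave 1152, that omitting wild-type library 1 gave 2, and those omitting a deficient library gave 0. The count for the change of the genotype difference in the colon was 1 with the replicate block, 13 with DESeq2 and 0 to 597 without each library, the 597 without wild-type library 0 before transfer. In the hyper-IL-6 culture it was 3 with DESeq2, 0 with the replicate block and 0 to 1 without each library. In naive cells it was 95 with DESeq2, 0 with the replicate block and 0 to 902 without each library, the 902 without wild-type replicate 2. The cause was not tested. Some fitted log2 fold changes turned sign: Tbx21 was 0.0064 with no filter and 0.0001 on the compared groups, Ahr was 0.10 (compared groups only), 0.095 (pairs within a stage) and 0.054 (number across stages) with the replicate block, and Il21 was 0.0011 with the block on the compared groups. Without each library in turn the ranges were -0.59 to 0.82 for Ahr, -2.63 to 2.10 for Ccl20, -0.73 to 2.30 for Ccr6, -1.28 to 1.53 for Foxp3, -0.95 to 0.21 for Il10, -2.60 to 0.28 for Il17a, -0.55 to 1.31 for Il1r1, -0.67 to 0.78 for Il21, -1.91 to 0.12 for Il22, -0.52 to 0.89 for Il23r, -0.40 to 0.74 for Irf4, -0.21 to 0.90 for Maf, -0.69 to 1.55 for Rora, -0.77 to 1.17 for Socs3, -0.31 to 0.29 for Stat3 and -1.51 to 0.92 for Tbx21. The leave-out fits had no block, so these ranges mix the genotype difference with the difference between experiments. Ccl20, for example, was at 252 and 29.9 CPM in wild-type and 230 and 22.8 in deficient libraries. Its log2 ratios within the experiments were -0.13 and -0.39. With 2 libraries per genotype, a gene that did not pass may still differ.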
